A study of Mus musculus with 60 samples.

Results

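The time course of gene expression in the striatum of mice given a single injection of fluoxetine was followed over 12 of the 60 arrays of the series. Every array of the groups labelled as fluoxetine was taken: 3 arrays at each of the times 1, 2, 4 and 8 h, with the 2 h, 4 h and 8 h arrays each set against the 1 h arrays. C57BL/6J mice, 6 to 10 weeks old in all groups by the sample labels, received fluoxetine at 20 mg/kg intraperitoneally. The study's methods describe adult males of 8 to 10 weeks. The striatum, dissected as rostral caudate putamen with nucleus accumbens, was taken for RNA. Saline-injected mice (12 arrays) and naive mice that received no injection (12 arrays), sampled at the same 4 times, served as the comparison time courses. RNA of 2 mice was pooled on each Illumina MouseWG-6 bead array, so an array stood for a pair of animals. The study's methods give no clock times of injection or of tissue collection, so time after injection may have gone with time of day. A change with time within an injected group cannot by itself be told apart from a daily one.

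Fluoxetine, a selective serotonin reuptake inhibitor, blocks the serotonin transporter and raises extracellular serotonin. The striatum consists mostly of medium spiny neurons, whose immediate early genes are transcribed within minutes of synaptic or hormonal stimulation and encode transcription factors such as those of the Fos and Egr families. Handling and injection also release glucocorticoids, which act through a nuclear receptor on genes of lipid, glucose and stress metabolism. Another source of change over hours is the circadian clock, in which the activators Arntl and Clock drive their own repressors (Per, Cry, Nr1d1, Ciart) and output factors such as Dbp from E-box sequences.

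Values are log2 signals of single probes after quantile normalisation, and a difference of 1 is a 2-fold difference in signal. Differences are estimates ± SE of limma's fit over all 60 arrays, with p-values adjusted by the Benjamini-Hochberg method over 45281 probes. Besides the fluoxetine, saline and naive arrays, these included arrays of mice given tianeptine (20 mg/kg) or imipramine (10 mg/kg). Those arrays entered the normalisation and the estimate of the spread. Because the fit weighted arrays by chip, estimates differ slightly from differences of the means. Before normalisation the fluoxetine arrays had median log2 signals of 7.05 to 8.11, and arrays of one time correlated at 0.979 to 0.992. Of the 16 medium spiny neuron markers measured, Adcy5 and Chrm4 were dim (mean signals over all arrays 7.32 and 7.44, below the common array median of 7.57) and the other 14 lay above that median. Over the 12 fluoxetine arrays Drd2, the dopamine D2 receptor, had 11.64 to 12.17, Penk, the enkephalin precursor, 11.45 to 12.74, and Ppp1r1b, which encodes DARPP-32, 14.77 to 15.35. Array 2 at 1 h and array 3 at 2 h stood apart by choroid plexus markers: the signal of Ttr (transthyretin) was 15.79 and 15.12 on them, against 9.89 to 12.70 on the other 10 arrays. Array 2 at 1 h also had the lowest Drd2 and Penk signals, whereas its Ppp1r1b signal of 15.03 lay within the range of the others. Averaged over each list of markers, that array was the lowest of the 12 for medium spiny neurons and the highest for cortical neurons. In bulk tissue, fewer cells of a type and less RNA per cell cannot be told apart.

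Of the 3 comparisons with 1 h, that of 8 h gave the most differences. The immediate early genes Fosl2, Fos, Egr2, Fosb, Egr4 and Egr1 were lower at 8 h, whereas the clock genes Ciart and Dbp, the lipid droplet gene Plin4, the cold-inducible Cirbp and the methyltransferase gene Inmt were higher. In all, 25 of 45281 probes (0.0552%) passed the threshold of 0.05, with 12 higher (0.0265%) and 13 lower (0.0287%). The probes named 19 genes, and 4 had no gene symbol. On all 25 the arrays at 8 h and 1 h did not overlap, but the probes had been chosen by these same arrays. The share of all probes without overlap was not counted, so this adds no support to the calls. At 4 h 4 probes passed (0.00883%) and at 2 h none did by limma, with 1996 probes at an unadjusted p under 0.05 and a smallest adjusted p of 0.290. All 3 comparisons shared the 1 h arrays.

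Fosl2 encodes Fra-2, a partner of Jun proteins in the AP-1 transcription factor. Its signal was 10.45, 10.65 and 10.39 on the 1 h arrays, 10.18, 10.49 and 10.36 at 2 h, 9.67, 9.86 and 9.42 at 4 h, and 9.24, 9.11 and 9.07 at 8 h. The 2 h arrays overlapped those of 1 h, the 4 h arrays all lay below both, and the 8 h arrays lay below every earlier array. Fosl2 was lower by 0.17 ± 0.14 at 2 h on this scale, which did not pass, fell by 0.87 ± 0.15 at 4 h (adjusted p = 0.00828) and by 1.37 ± 0.15 at 8 h (adjusted p = 7.21e-08), to 0.386 of the 1 h signal. The 4 h call was lost without array 1 at 1 h (difference -0.86, adjusted p = 0.0523), array 2 at 1 h (-0.85, 0.0991) or array 3 at 4 h (-0.75, 0.199), and the 8 h call was kept without any 1 of the 12 arrays. The other probes of Fosl2 were dim, with mean signals of 7.48 and 7.11, and their differences at 8 h were 0.05 and -0.12.

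Fos, whose product joins Jun in AP-1 and is a common marker of neuronal activation, had signals of 10.07, 9.94 and 10.38 at 1 h, 9.44, 9.65 and 9.29 at 2 h, 9.51, 9.02 and 8.29 at 4 h, and 8.41, 8.97 and 8.40 at 8 h. All 3 arrays of each later time lay below all 3 arrays of 1 h. The difference was -0.67 ± 0.22 at 2 h and -1.11 ± 0.23 at 4 h, neither past the threshold (adjusted p = 0.101 at 4 h), and Fos fell by 1.43 ± 0.22 at 8 h (adjusted p = 3.69e-04). Fosb, another AP-1 subunit, had 9.56, 9.77 and 9.82 at 1 h, 9.47, 9.84 and 9.85 at 2 h, 9.29, 9.23 and 9.38 at 4 h, and 9.21, 8.92 and 9.04 at 8 h. The 2 h arrays overlapped those of 1 h, and the 4 h and 8 h arrays lay below them. Its fall of 0.67 ± 0.13 at 8 h passed (adjusted p = 0.00965), but not without array 3 at 1 h (-0.62, adjusted p = 0.105), array 2 at 8 h (-0.62, 0.128) or array 3 at 8 h (-0.63, 0.0869).

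The Egr genes encode zinc finger transcription factors that bind GC-rich promoters. Egr2 had signals of 10.65, 9.97 and 10.85 at 1 h, 9.79, 10.20 and 10.47 at 2 h, 9.80, 9.61 and 9.02 at 4 h, and 9.24, 9.05 and 8.92 at 8 h. Arrays of 1 h and 2 h overlapped, and the 4 h and 8 h arrays all lay below those of 1 h. Egr2 fell by 1.40 ± 0.22 at 8 h (adjusted p = 3.49e-04), and its difference of -0.99 at 4 h did not pass (adjusted p = 0.217). Egr1, the brightest of these probes, read 14.30, 14.42 and 14.13 at 8 h, against 15.04, 14.99 and 15.11 at 1 h, a fall of 0.71 ± 0.15 (adjusted p = 0.0324) that lost its call without any 1 of the 1 h or 8 h arrays, with differences of -0.78 to -0.60 and adjusted p from 0.0526 to 0.328. Egr4 had 11.04, 11.05 and 11.17 at 8 h, against 13.15, 11.74 and 12.57 at 1 h, where it was the most variable of these genes. Its fall of 1.28 ± 0.26 (adjusted p = 0.0209) rested on array 1 at 1 h above all (without it -0.98, adjusted p = 0.531), and was also lost without array 3 at 1 h or any 1 of the 8 h arrays (-1.30 to -1.25, adjusted p from 0.0766 to 0.128).

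**Figure D1:**
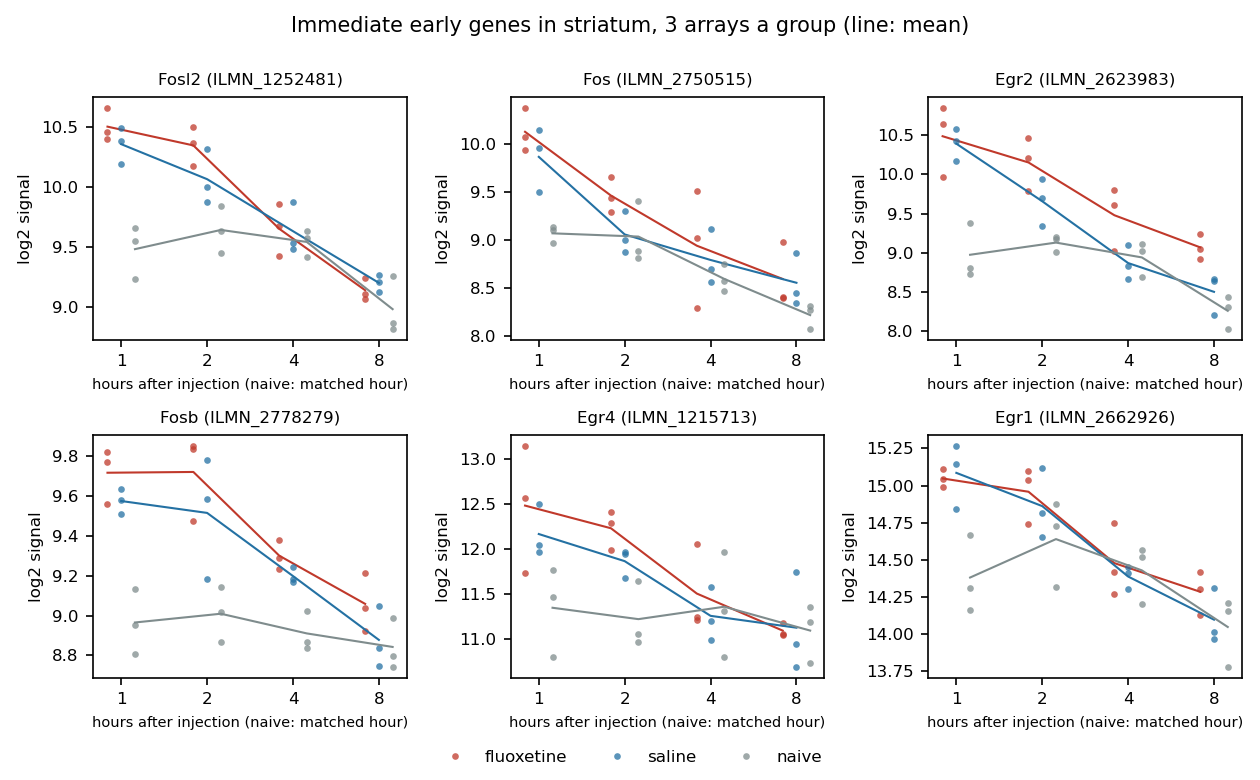
Log2 signal (y axis) of 6 immediate early genes on every array, by hours after injection (x axis, 1 to 8 h), in fluoxetine, saline and naive mice; points are arrays and lines join the means of 3. In fluoxetine mice Fosl2 lay at 9.07 to 9.24 at 8 h, against 10.39 to 10.65 at 1 h, and at 1 h the naive arrays of Fosl2, at 9.24 to 9.66, lay below those of both injected groups.

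The saline and naive mice allow these falls to be set against those of the other groups. At 1 h Fosl2 had 10.39 to 10.65 in fluoxetine mice, 10.19 to 10.49 in saline mice and 9.24 to 9.66 in naive mice, so that both injected groups lay above the naive one. From 1 h to 8 h the difference was -1.37 in fluoxetine mice, -1.20 in saline mice and -0.51 in naive mice. The fluoxetine change minus the saline change was -0.17 with a 95% confidence interval of -0.59 to 0.25, and minus the naive change -0.86 with an interval of -1.30 to -0.43, which did not pass over all probes (adjusted p = 0.999). For Fos the same subtractions gave -0.11 (-0.75 to 0.52) against saline and -0.55 (-1.21 to 0.11) against naive mice. For Egr2 they gave 0.47 (-0.14 to 1.09) and -0.62 (-1.25 to 0.02). Egr2 had 9.24, 9.05 and 8.92 at 8 h in fluoxetine mice, against 8.66, 8.63 and 8.20 in saline mice, a difference at that time of 0.57 (interval 0.14 to 1.00) that did not pass over all probes.

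Egr2 is one of the called genes for which a known kind of activity-dependent element was found near a transcription start. RefSeq promoter windows of 300 bases around each transcription start (GRCm38.p6) were searched for the CArG box, the element bound by serum response factor. This box was added to the search after the values had been seen. The box was found in 4 of the 5 Egr2 start sites annotated, in 3 of them as one and the same element, and in 1.63% of the 32851 promoters searched. The window of start site 3, at chr10:67537619-67537918 on the plus strand, is shown because it holds the shared element, in capitals 72 bases upstream of the start.
Egr2 promoter: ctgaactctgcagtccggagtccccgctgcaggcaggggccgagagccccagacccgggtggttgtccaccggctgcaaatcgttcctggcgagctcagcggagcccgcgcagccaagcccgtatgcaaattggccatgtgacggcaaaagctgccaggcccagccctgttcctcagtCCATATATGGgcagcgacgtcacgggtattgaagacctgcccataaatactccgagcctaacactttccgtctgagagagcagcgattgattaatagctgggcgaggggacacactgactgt
The windows of Fosl2 and Fos held neither this box nor the E-box (CACGTG), D-box (TTATGNAA), CRE (TGACGTCA), glucocorticoid half-site palindrome (ACANNNTGT) or heat shock element searched on both strands. An element outside these short windows, or one that departs from the exact sequence searched, would have been missed. The lack of a match therefore does not show that a gene lacks the element. A match is a description of the sequence and no evidence of binding.

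The list of immediate early genes had 38 of 40 members measured. None passed at 2 h, 1 was lower at 4 h (Fosl2) and 6 were lower at 8 h, and none was higher at any time. At 8 h 32 of the 38 had a negative difference and their median was -0.17. Over all probes the median rounded to 0.00 and 49.6% were positive. In saline mice 31 of the 38 were negative at 8 h (median -0.20), and in naive mice 30 (median -0.12). The fluoxetine medians at 2 h and 4 h were -0.06 and -0.12. Arc, which regulates AMPA receptor endocytosis at synapses, had 9.91, 10.57 and 10.17 at 8 h, against 12.24, 11.06 and 11.68 at 1 h, and its difference of -1.22 did not pass (adjusted p = 0.163). Without array 2 at 1 h it did (-1.55, adjusted p = 0.0441). The differences at 8 h of Npas4 (-0.35), Dusp1 (-0.30), a phosphatase of MAP kinases, and Dusp6 (-0.59, adjusted p = 0.158) did not pass. None of the 15 MAP kinase feedback genes measured passed at any time.

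Among the probes that rose, those of clock genes had the smallest p-values. Ciart, also called Chrono, encodes a repressor of the Arntl-Clock pair. Its brightest probe read 9.53, 9.56 and 9.48 at 1 h, 9.55, 9.83 and 9.31 at 2 h, 9.70, 9.98 and 9.55 at 4 h, and 10.58, 10.70 and 10.47 at 8 h. The 3 arrays of 8 h lay above all 9 earlier arrays, which overlapped one another in part. Ciart was 2.17-fold higher at 8 h (log2 difference 1.12 ± 0.15, adjusted p = 1.38e-05), and its other probes rose by 1.16 ± 0.13 (adjusted p = 7.21e-08) and 0.75 ± 0.12 (adjusted p = 3.69e-04). These 3 probes were also the only ones that passed for 8 h against 4 h (0.00663% of all). The 4 h and 8 h arrays numbered 3 shared a chip, and within it the probes were higher at 8 h by 0.92, 1.01 and 0.68.

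The start of Ciart carries several copies of the sequence through which the clock activators act. The window below, chr3:95882179-95882478 on the minus strand (GRCm38.p6), is shown because it held 3 E-boxes (CACGTG, a palindrome, in capitals) that began 116, 58 and 44 bases upstream of the start. Of the 32851 promoters searched 7.15% held at least 1 E-box and 29 (0.0883%) held 3 or more.
Ciart promoter: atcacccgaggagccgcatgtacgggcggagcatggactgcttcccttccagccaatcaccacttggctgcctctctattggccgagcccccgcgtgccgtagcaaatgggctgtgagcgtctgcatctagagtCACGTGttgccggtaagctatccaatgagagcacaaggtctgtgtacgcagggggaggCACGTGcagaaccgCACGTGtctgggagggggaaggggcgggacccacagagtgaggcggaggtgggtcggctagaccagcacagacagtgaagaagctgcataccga
The Dbp and Plin4 windows held none of the motifs searched. Among the 8 higher named genes with a RefSeq promoter, 2 held an E-box (Ciart and Tspan4), and among the 8 lower ones, 1 did (Egr2, at another start site).

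Dbp, a PAR-domain transcription factor and an output of the clock, was among the brighter of these genes. It had 13.28, 13.19 and 13.38 at 1 h, 13.48, 13.25 and 13.07 at 2 h, 13.67, 13.70 and 13.59 at 4 h, and 14.08, 14.18 and 13.92 at 8 h. The 4 h arrays lay above the arrays of 1 h and 2 h, and the 8 h arrays above those of 4 h. Dbp was 1.72-fold higher at 8 h (0.78 ± 0.12, adjusted p = 3.24e-04), and the 0.40 at 4 h did not pass. Its change differed from that in saline mice by -0.13 (-0.47 to 0.21) and from that in naive mice by 0.28 (-0.07 to 0.63), and Ciart's brightest probe by -0.21 (-0.64 to 0.21) and -0.03 (-0.47 to 0.41). Ciart passed in naive mice also, with 1.15, and in saline mice with 1.33. For these genes the fluoxetine, saline and naive arrays reached similar levels at 8 h, whereas Dbp at 1 h read 13.19 to 13.38 in fluoxetine mice, 13.27 to 13.39 in saline mice and 13.57 to 13.83 in naive mice.

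Arntl, the activator that Ciart represses, moved the other way without passing: its signal was 9.97, 9.72 and 10.24 at 8 h, against 10.78, 10.43 and 10.99 at 1 h, a difference of -0.78 ± 0.20 (adjusted p = 0.226) beside -0.68 in saline mice and -0.76 in naive mice. All 3 arrays of 8 h lay below those of 1 h. When only probes brighter than the median probe were tested the adjusted p was 0.0313, and with chip as a fixed block 0.00499. All 5 clock activators measured had negative differences at 8 h (median -0.15, none past the threshold), Rora with only -0.01. In saline mice 5 were negative (median -0.23) and in naive mice 3 (median -0.22). Of 13 clock repressors, 10 were positive (median 0.14), with Ciart alone passing. In saline mice 7 were positive (median 0.06) and in naive mice 10 (median 0.19). Over all probes 49.6% were positive in fluoxetine mice at 8 h. Per3 had 8.80, 8.71 and 8.60 at 8 h, against 8.35, 8.44 and 8.25 at 1 h, and its difference of 0.39 did not pass, nor did those of Nr1d1 (0.48), Per1 (-0.27) and Per2 (-0.09). Of 11 clock output genes, Dbp and Tspan4 passed, and the median was 0.12, beside -0.01 in saline mice and 0.15 in naive mice.

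**Figure D2:**
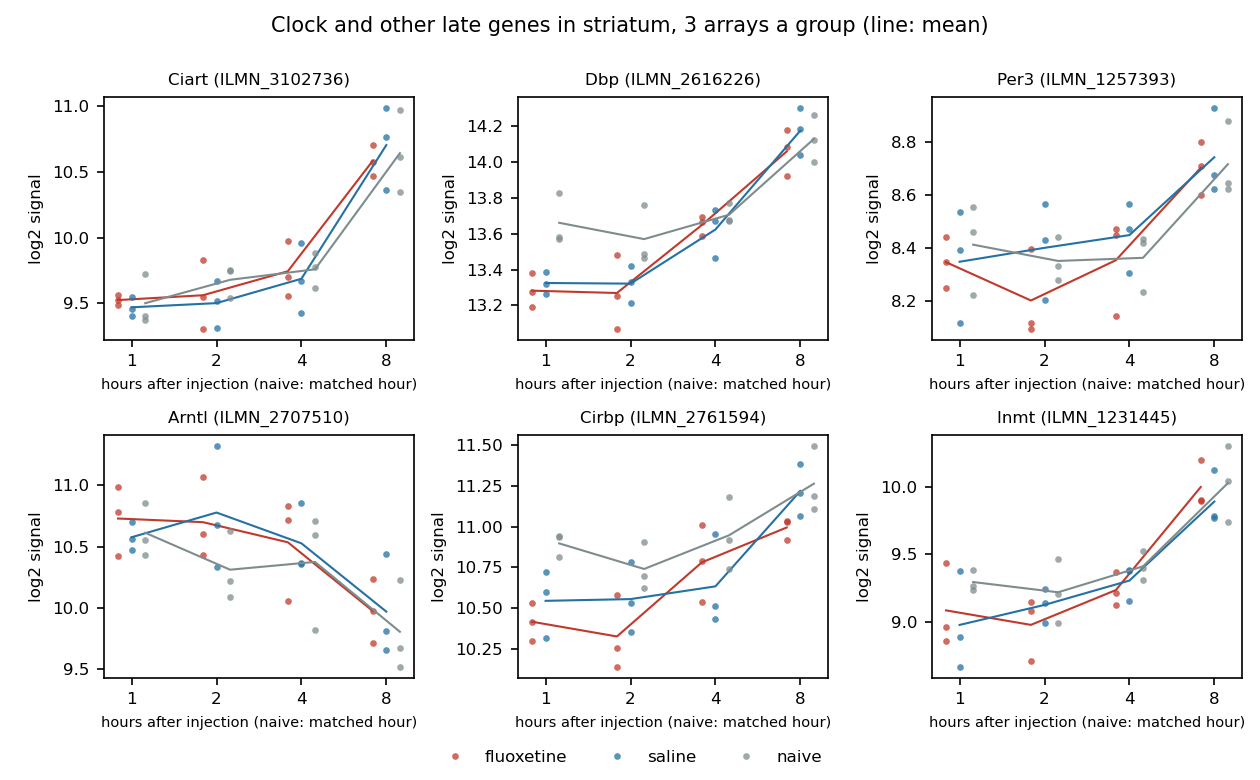
Log2 signal (y axis) of 4 clock genes, Cirbp and Inmt on every array, by hours after injection (x axis, 1 to 8 h), in fluoxetine, saline and naive mice; points are arrays and lines join the means of 3. Ciart stayed between 9.31 and 9.98 on the fluoxetine arrays of 1, 2 and 4 h and reached 10.47 to 10.70 at 8 h, with the saline and naive arrays close to it.

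Cirbp and Inmt, which are not on the clock lists, were also higher at 8 h. Cirbp, whose product binds RNA and is induced by mild cooling, read 10.53, 10.30 and 10.42 at 1 h, 10.58, 10.14 and 10.25 at 2 h, 10.79, 11.01 and 10.54 at 4 h, and 10.92, 11.03 and 11.04 at 8 h. The 4 h and 8 h arrays lay above those of 1 h. Its rise of 0.63 ± 0.13 (adjusted p = 0.0267) was lost without any 1 of the 1 h arrays or without array 2 or 3 at 8 h (0.59 to 0.65, adjusted p from 0.105 to 0.265). Rbm3, the other cold-inducible gene listed, had -0.14 at 8 h and did not pass. Inmt, which methylates indolethylamines such as tryptamine, had 9.90, 10.20 and 9.90 at 8 h, against 8.96, 9.43 and 8.86 at 1 h. It was higher by 0.89 ± 0.17 (adjusted p = 0.0105), a call lost without array 1 at 1 h (0.89, adjusted p = 0.0882), array 3 at 1 h (0.79, 0.153) or array 2 at 8 h (0.77, 0.265), and a second Inmt probe with 0.52 did not pass.

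Plin4, which encodes a perilipin of lipid droplets, had the largest fold among the called genes and an earlier course. Its signal was 8.31, 8.50 and 8.07 at 1 h, 9.32, 9.75 and 9.43 at 2 h, 9.88, 10.76 and 9.62 at 4 h, and 10.60, 8.93 and 9.03 at 8 h. Every later array lay above every 1 h array, and at 8 h array 1 stood apart from the other 2 (SD 0.94, n = 3). The difference was 1.28 ± 0.28 at 2 h, which did not pass (adjusted p = 0.290), and Plin4 was 3.80-fold higher at 4 h (1.93 ± 0.29, adjusted p = 9.22e-04) and 2.66-fold higher at 8 h (1.41 ± 0.29, adjusted p = 0.0239). The 4 h call was kept without any 1 of the 12 arrays. The 8 h call was lost without array 1 at 8 h (0.90, adjusted p = 0.593), array 1 at 1 h (1.33, 0.231) or array 3 at 1 h (1.35, 0.156). Arrays 2 of 1 h and 2 h lay on one chip and differed by 1.25.

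In saline mice the changes of Plin4 were 0.66 at 2 h, 0.75 at 4 h and 1.47 at 8 h, and in naive mice -0.06, -0.41 and 0.18. At 4 h its signal was 9.88, 10.76 and 9.62 in fluoxetine mice, 9.09, 8.68 and 8.61 in saline mice and 8.10, 7.87 and 7.90 in naive mice, 3 groups that did not overlap. The difference between fluoxetine and saline mice at 4 h was 1.39 (interval 0.83 to 1.95), with an adjusted p of 0.380. The change to 4 h in fluoxetine mice exceeded that in saline mice by 1.17 (0.37 to 1.98) and that in naive mice by 2.33 (1.47 to 3.20, adjusted p = 0.0779), and neither passed over all probes.

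Plin4 belonged to a list of glucocorticoid-responsive genes, of which 31 of 32 were measured and Plin4 alone passed, at 4 h and at 8 h. The list's median difference was 0.12 at 2 h (23 members positive), 0.11 at 4 h (22) and 0.07 at 8 h (19). In saline mice the medians were 0.12, 0.10 and 0.19, and in naive mice 0.03, -0.07 and 0.11. Fkbp5, a co-chaperone of the glucocorticoid receptor, read 9.57, 9.59 and 9.59 at 1 h, 9.96, 10.00 and 9.74 at 2 h, 10.07, 10.25 and 9.87 at 4 h, and 10.02, 9.70 and 9.73 at 8 h. All 9 later arrays lay above the 3 of 1 h, and none of its differences (0.36, 0.51 and 0.29 at 2, 4 and 8 h) passed, with an adjusted p of 0.183 at 4 h. Hif3a, an inhibitory member of the hypoxia-inducible factor family, had 9.06 to 9.93 on the 9 later arrays, against 8.60, 8.65 and 8.65 at 1 h. Its differences of 0.73, 0.97 and 0.99 did not pass in the fit over all probes (8 h adjusted p = 0.163), although it did at 8 h among probes brighter than the median probe (adjusted p = 0.0313) and with chip as a fixed block (0.00747). Dimmer Hif3a probes, with mean signals of 7.93 and 7.54, had differences of 0.03 and 0.26 at 8 h and did not pass.

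Tsc22d3, which encodes the glucocorticoid-induced leucine zipper protein, had differences of 0.34, 0.51 and 0.43, and Sult1a1, a sulfotransferase, 0.23, 0.45 and 0.37. Sgk1, a kinase that controls ion transport, followed another course, with 12.67, 13.79 and 13.45 at 1 h, 12.88, 13.30 and 13.13 at 2 h, 12.28, 12.48 and 12.27 at 4 h, and 13.41, 12.95 and 13.07 at 8 h. The 4 h arrays lay below all others, and the difference of -0.90 at 4 h did not pass. The cell cycle inhibitor Cdkn1a had 0.11, -0.15 and -0.35, and Ddit4, an inhibitor of mTOR signalling, -0.16, -0.48 and -0.34. None of these genes passed at any time.

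**Figure D3:**
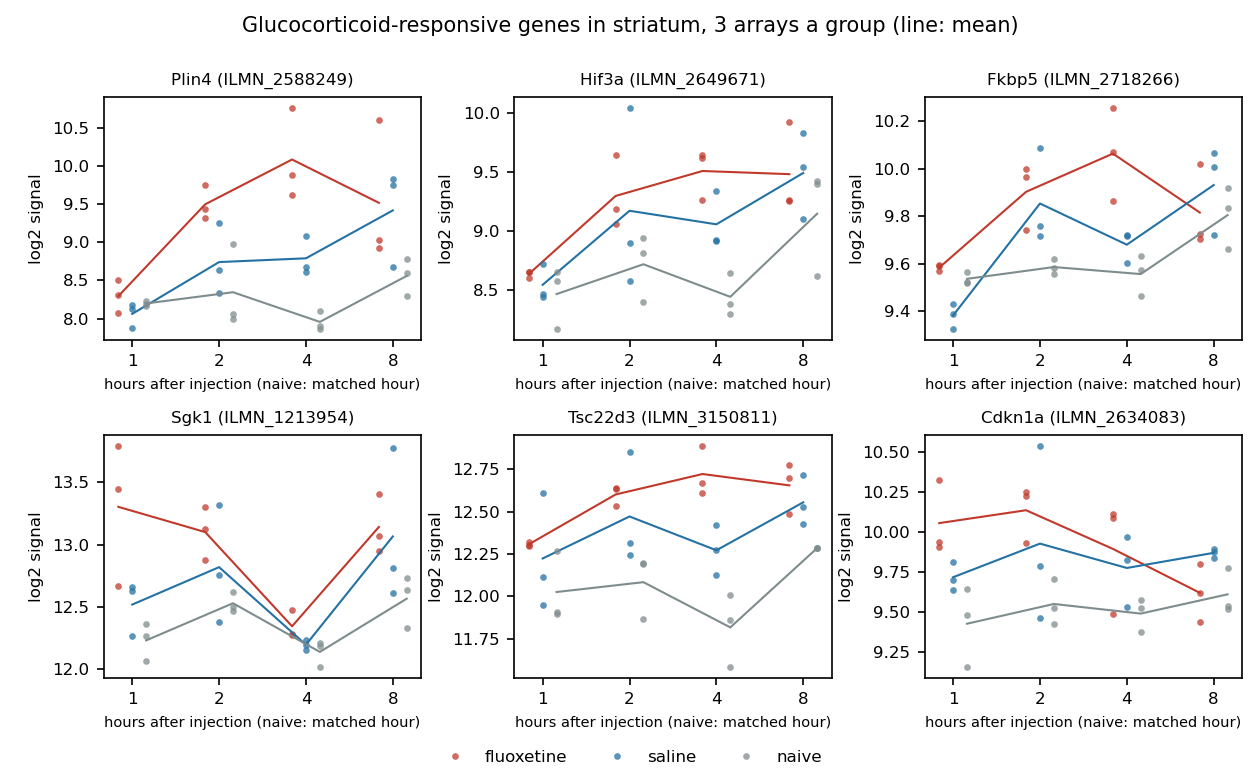
Log2 signal (y axis) of 6 glucocorticoid-responsive genes on every array, by hours after injection (x axis, 1 to 8 h), in fluoxetine, saline and naive mice; points are arrays and lines join the means of 3. At 4 h Plin4 had 9.62 to 10.76 in fluoxetine mice, 8.61 to 9.09 in saline mice and 7.87 to 8.10 in naive mice, and of the 6 genes it alone passed a comparison with 1 h.

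The other genes past the threshold at 8 h moved by smaller amounts. Pdp1, the phosphatase that activates pyruvate dehydrogenase, had 9.91, 9.95 and 9.95 at 8 h, against 10.45, 10.47 and 10.60 at 1 h, with the 2 h and 4 h arrays between 10.23 and 10.68. It fell by 0.60 ± 0.10 (adjusted p = 0.00198) and kept its call without any 1 of the arrays. Ccno, a cyclin-like gene of multiciliated cells, rose in each step of the means, with a mean of 8.90 ± 0.15 at 1 h (SD, n = 3), 9.31, 9.56 and 9.26 at 4 h, and 9.61, 9.92 and 9.33 at 8 h (0.73 ± 0.14, adjusted p = 0.0102), but its call was lost without array 1 at 1 h (0.70, adjusted p = 0.107), array 2 at 1 h (0.73, 0.0539) or array 2 at 8 h (0.60, 0.265). Lower at 8 h were Sphk2, a sphingosine kinase (-0.58), Cbfa2t3, a transcriptional corepressor (-0.59), the neuropilin gene Nrp1, a receptor of semaphorins and VEGF (-0.55), and Tpd52 (-0.45). Higher were Prrt4 (0.60) and the tetraspanin gene Tspan4 (0.49). Their adjusted p-values lay between 0.0122 and 0.0271, and each lost its call in at least 1 fit without a single 1 h or 8 h array. Other probes of some of these genes did not pass: a brighter Sphk2 probe had -0.35 (adjusted p = 0.309), and further Nrp1 probes, with mean signals of 10.44 and 9.51, had -0.28 (adjusted p = 0.763) and -0.23. Dimmer probes of Cbfa2t3 had -0.08 and -0.18, of Tpd52 0.00, of Tspan4 0.14 and 0.05, and of Pdp1 -0.25.

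A probe without a gene symbol, ILMN_2486012, gave one of the steepest falls. It read 12.71, 13.23 and 13.28 at 1 h, 12.97, 13.48 and 13.36 at 2 h, 12.72, 12.79 and 12.46 at 4 h, and 11.93, 11.64 and 11.78 at 8 h. The arrays of 8 h lay below all 9 earlier arrays. The difference was -1.31 ± 0.17 (adjusted p = 1.25e-05), beside -1.57 in saline mice and -1.20 in naive mice, where it passed as well. Without each of the 12 arrays in turn, 10 of the 25 probes kept their call in every fit: the 3 Ciart probes, Dbp, Egr2, Fos, Fosl2, Pdp1, ILMN_2486012 and ILMN_2595732. Of these, Dbp (adjusted p = 0.151), Pdp1 (0.525) and ILMN_2595732 (0.252) lost it by limma with arrays shifted to a common median instead of quantile normalisation. When limma was given only the arrays compared, the same probes, Egr2 and the dimmest Ciart probe lost it. The count of probes past the threshold at 8 h was 12 without array 1 at 1 h, 16 without array 2 at 1 h, 15 without array 3 at 1 h, 13 without array 2 at 8 h and 15 without array 3 at 8 h.

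Without the 2 arrays rich in transthyretin, an alternative chosen after the data had been seen, 16 probes passed at 8 h. Fosl2 (-1.35), Fos (-1.53), Egr2 (-1.68), Egr4 (-1.58), the brightest Ciart probe (1.11), Dbp (0.73), Inmt (1.00) and Plin4 (1.56) were among them, and Egr1 (-0.74, adjusted p = 0.109) and Cirbp (0.59, adjusted p = 0.239) were not. Of the choroid plexus list 12 of 15 members were measured, and its median difference was -0.12 at 2 h, -0.31 at 4 h and -0.33 at 8 h. These medians without array 2 of 1 h were 0.27, -0.02 and -0.04. The cortical neuron markers had medians of -0.16, -0.18 and -0.12, and 0.00, -0.04 and -0.02 without that array. No member of either list passed, and their part in the differences of other genes was not tested.

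At 4 h the probes past the threshold were those of Plin4 (0.00221% of all probes were higher), and of Fosl2, Plekhf1 and the unnamed ILMN_2566321 (0.00663% lower). Plekhf1, an endosomal phosphoinositide-binding protein, had 8.79, 9.15 and 8.73 at 1 h, 8.53, 8.94 and 8.62 at 2 h, 7.98, 8.26 and 7.67 at 4 h, and 8.72, 8.32 and 8.20 at 8 h. All 4 h arrays lay below those of 1 h and 2 h, whereas array 1 at 8 h was back near the 1 h level. The fall of 0.88 ± 0.16 (adjusted p = 0.0111) was lost without array 2 at 1 h (-0.76, adjusted p = 0.244) or array 3 at 4 h (-0.78, 0.199), and at 8 h the difference was -0.44 without passing. A second Plekhf1 probe had -0.43 at 4 h and did not pass. Without array 3 at 4 h a single probe passed this comparison, and 2 did without array 2 at 1 h.

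The genes closest to passing at 2 h were Lap3, a leucine aminopeptidase (-0.51 ± 0.11), Knstrn, a kinetochore component (-0.54 ± 0.11), and Plin4 (1.28 ± 0.28), all with an adjusted p of 0.290. Knstrn read 7.13, 7.23 and 7.24 at 2 h, against 7.70, 7.87 and 7.66 at 1 h, and Lap3 7.42, 7.22 and 7.21, against 7.75, 8.05 and 7.53. These groups did not overlap, but both probes lay near the common array median of 7.57. Lcn2, a secreted acute-phase protein, illustrates a difference carried by 1 array: its estimate of 1.06 at 2 h came from array 2 with 10.09, beside 7.59 and 7.54 on the others, and it did not pass.

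Tested over all 4 times at once, 28 probes (0.0618%) varied with time in fluoxetine mice. Their mean was highest at 1 h for 8 probes, at 2 h for 6, at 4 h for 1 (Plin4) and at 8 h for 13, and lowest at 8 h for 12. The means of 6 probes increased at each step and those of 6 decreased at each step. Genes that passed this test but none of the comparisons with 1 h were Amer2, a regulator of Wnt signalling, Ppp2r1b, a scaffold subunit of protein phosphatase 2A, the centrosomal gene Ninl, the zinc finger gene Zfp46 and Creld2, a protein of the endoplasmic reticulum. Amer2 had 9.18, 8.84 and 9.08 at 1 h, 9.27, 9.11 and 9.76 at 2 h, 8.84, 8.69 and 8.69 at 4 h, and 8.48, 8.41 and 8.54 at 8 h (adjusted p of the F test = 7.15e-04). Ppp2r1b took a similar course, with 8.98, 8.76 and 8.65 at 8 h, against 9.40, 9.80 and 9.56 at 2 h (adjusted p of the F test = 0.00207). A brighter Amer2 probe had a difference of -0.04 at 8 h, so that the probes of this gene disagreed.

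**Figure D4:**
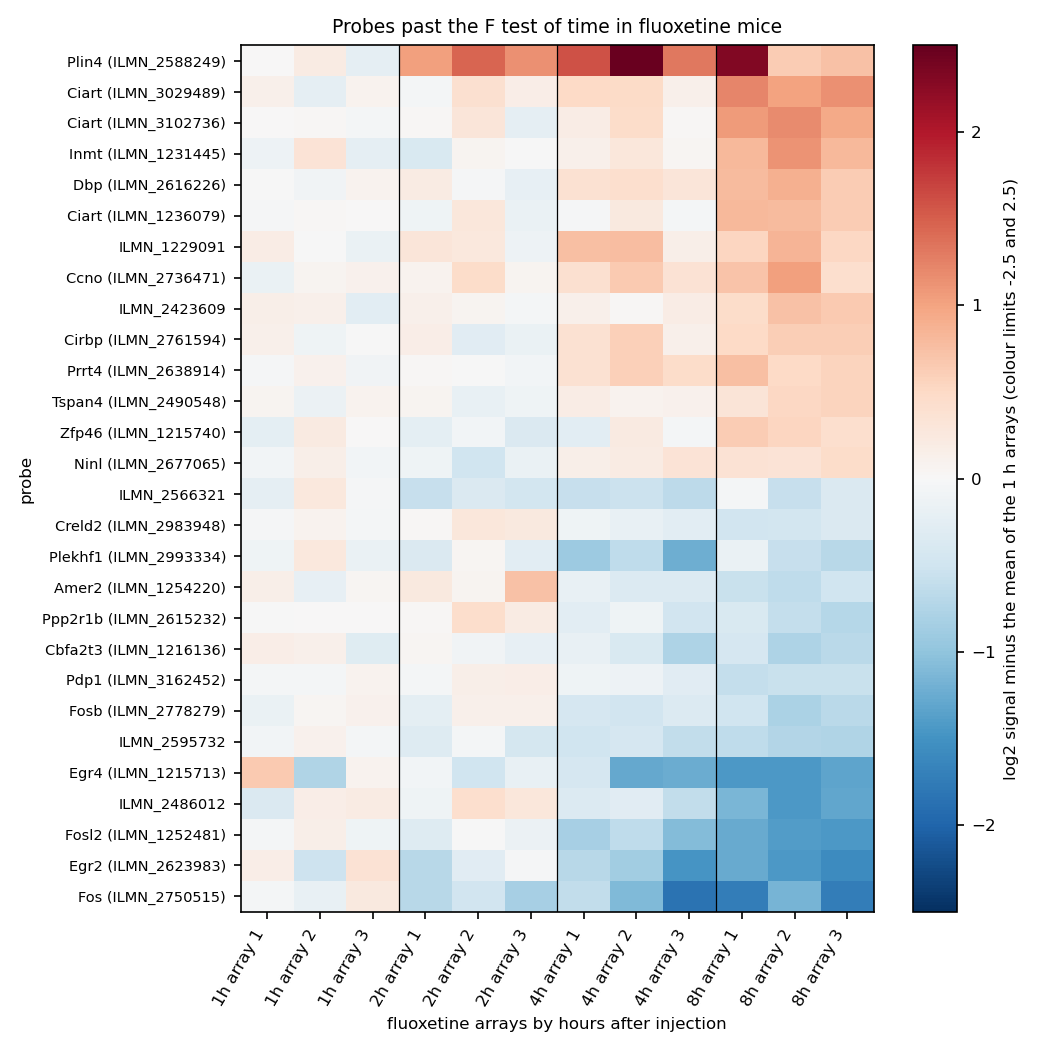
Log2 signal minus the mean of the 1 h arrays (colour, red higher and blue lower) of the 28 probes past the F test of time, with probes in rows and the 12 fluoxetine arrays in columns by hours after injection. The colours deepen towards 8 h for most rows, whereas Plin4 is deepest on 4 h array 2 and 8 h array 1, with signals of 10.76 and 10.60.

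Because several of these genes were highest or lowest at 2 h, the 8 h arrays were also set against those of 2 h, a comparison added after the data had been seen. It gave 34 probes (0.0751%), 18 higher (0.0398%) and 16 lower (0.0353%), of which 14 also passed against 1 h (41.2% of the 34 and 56% of the 25). Per3, a repressor of the clock, was higher by 0.53 (adjusted p = 0.0369), with 8.80, 8.71 and 8.60 at 8 h, against 8.11, 8.39 and 8.09 at 2 h. Further genes were higher than at 2 h: Dclk1, a doublecortin-like kinase of neurons (0.80, adjusted p = 0.0177), and Dpysl4, of the collapsin response mediator family (0.62, adjusted p = 0.0283). Lower were Amer2 (-0.86, adjusted p = 1.19e-04), Ppp2r1b (-0.78, adjusted p = 3.72e-04), Mmp23, a membrane metalloproteinase (-0.78, adjusted p = 0.00619), and Dusp11, an RNA phosphatase (-0.75, adjusted p = 0.0177). All 34 probes had the same sign of this difference in saline mice and in naive mice, while over all probes 56.2% and 51.2% did. The 34 were chosen by the fluoxetine values. The count of probes past this comparison was 11 without array 2 at 2 h, 16 without array 3 at 2 h, 17 without array 1 at 8 h and 18 without array 3 at 8 h. No probe passed for 4 h against 2 h by limma (2336 at an unadjusted p under 0.05, smallest adjusted p 0.218).

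No gene of the protein-folding lists passed at 8 h against 1 h. Of 23 heat shock genes 19 were positive at 2 h (median 0.11) and 19 were negative at 8 h (median -0.22), beside medians of -0.08 at 2 h and -0.17 at 8 h in saline mice and of 0.05 and -0.10 in naive mice. Stip1, a co-chaperone that links Hsp70 to Hsp90, had 11.96 to 12.21 at 8 h, against 12.54, 12.89 and 12.49 at 2 h, with a difference of -0.41 between 8 h and 1 h. The unfolded protein response genes, 17 measured, had medians of 0.06, -0.11 and -0.20 at 2, 4 and 8 h, with 14 negative at 8 h; without array 3 at 2 h the first of these was -0.00. Creld2 passed the F test (adjusted p = 0.0378), a call lost in 10 of the fits that left out 1 fluoxetine array. A second Creld2 probe, with a mean signal of 9.90, did not pass the F test (adjusted p = 0.279). None of the 16 integrated stress response, 18 cholesterol synthesis, 17 fatty acid oxidation or 20 inflammation genes measured passed at any time, with medians between -0.17 and 0.05. The 21 serotonin and monoamine genes had medians of -0.02, 0.01 and -0.07 and none passed. Slc6a4, the serotonin transporter that fluoxetine blocks, had signals of 7.10 to 7.55 in fluoxetine mice, at or below the common array median.

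The saline and naive time courses were set beside that of the fluoxetine mice. For 8 h against 1 h, 41 probes (0.0905%; 0.0375% higher and 0.053% lower) passed in saline mice and 4 (0.00883%) in naive mice, and for 4 h against 1 h 2 probes (0.00442%, both lower) passed in saline mice. Of the 25 probes called in fluoxetine mice, 25 changed in the same direction in saline mice and 24 in naive mice, while over all probes 53.8% and 49.2% had the same sign. In saline mice 16 of them passed (64% of the fluoxetine calls and 39% of the saline calls), and in naive mice 4. The median difference of the 12 higher probes was 0.74 in fluoxetine, 0.80 in saline and 0.48 in naive mice, and of the 13 lower probes -0.71, -0.73 and -0.27. The probes were chosen by the fluoxetine values, which bear on all of these figures.

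The difference between the time courses was itself tested. No probe passed for fluoxetine against saline (F test over the 3 times, smallest adjusted p 0.843; 1591 at an unadjusted p under 0.05) or against naive mice (smallest adjusted p 0.658; 1829 at an unadjusted p under 0.05). At single times the smallest adjusted p-values against naive mice were those of Lap3 at 2 h (-0.84, interval -1.15 to -0.53, adjusted p = 0.0586), Plin4 at 4 h (2.33, adjusted p = 0.0779) and Tpd52 at 8 h (-0.64, interval -0.91 to -0.37, adjusted p = 0.370). Lap3 read 7.42, 7.22 and 7.21 at 2 h in fluoxetine mice, 7.53, 7.72 and 7.45 in saline mice and 7.71, 7.76 and 7.68 in naive mice. Tpd52 was the one called probe that was lower at 8 h in fluoxetine mice (-0.45) and not in naive mice (0.19), with -0.10 in saline mice. With chip as a fixed block, Plin4 passed the F test against naive mice (adjusted p = 0.00627).

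**Figure D5:**
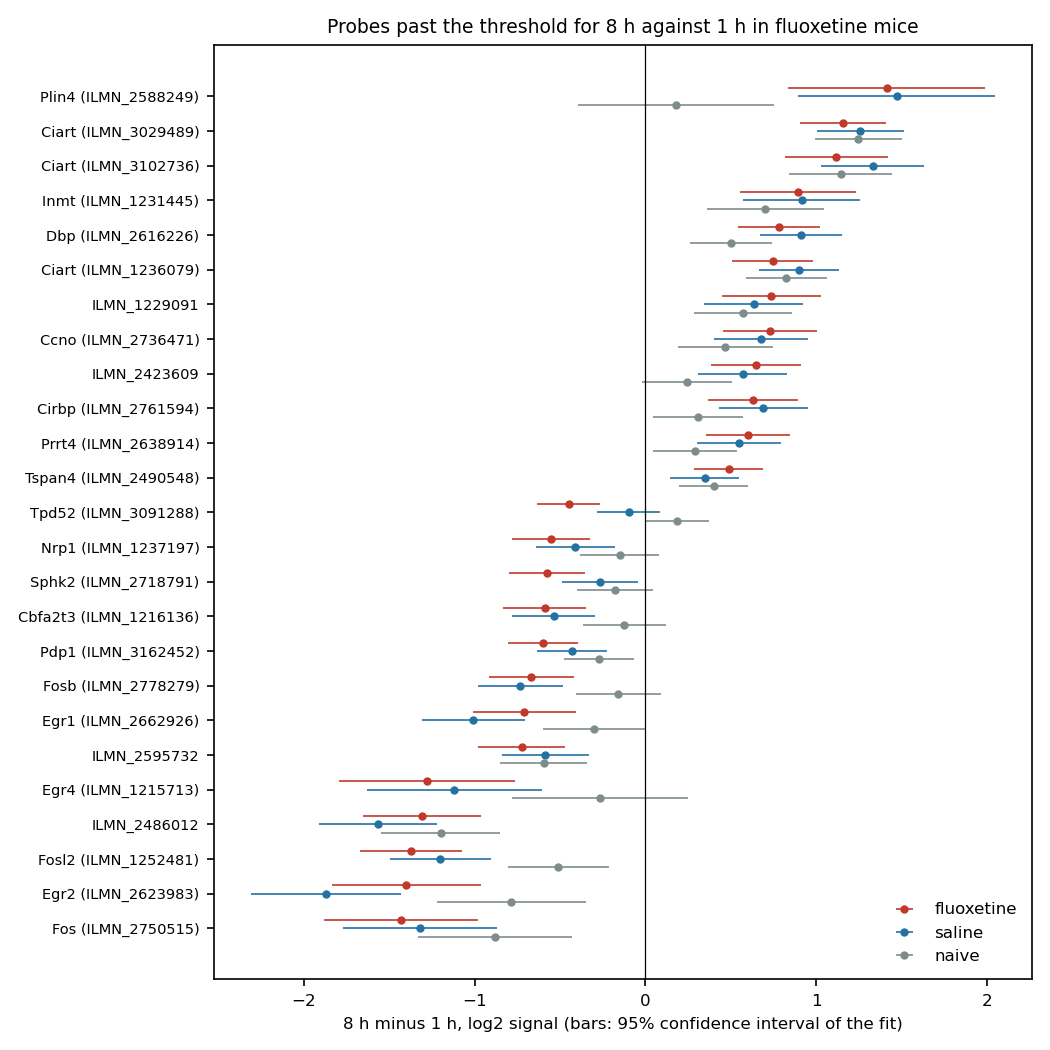
Difference between 8 h and 1 h (x axis, log2 signal; points are estimates and bars 95% confidence intervals) of the 25 probes called in fluoxetine mice (rows), for fluoxetine, saline and naive mice from top to bottom in each row. Fluoxetine and saline estimates lie on the same side of 0 for all 25 probes, and for Fosl2 they are -1.37 and -1.20, with -0.51 in naive mice.

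The chips set a limit on these comparisons. The 12 fluoxetine arrays lay on 10 chips, each of 6 arrays, and only 2 pairs of them shared one. The 4 h and 8 h arrays were thus set against the 1 h arrays across chips. Of the 12 fluoxetine arrays, 4 shared a chip with a saline array of the same time and 0 with a naive array of the same time. What this adds to the closer likeness to saline mice was not tested. With 3 arrays a group, each of pooled RNA, the p-values rest on a spread between pools. That spread was estimated over all 20 groups of the fit, not over the fluoxetine arrays alone.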

How the data were processed

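Per the labels and the study's methods, each array received striatal RNA pooled from 2 mice, on Illumina MouseWG-6 bead arrays; the authors read the arrays with Illumina software and deposited a table of log2 signals that had not been normalised between arrays. The authors' own processed table, quantile normalised and on the log2 scale, was used as an alternative; the methods also name background subtraction and standardisation of hybridisation batches, and whether background was subtracted in the table used here is not given in the sources used here. The deposited log2 signals (45281 probes, 60 arrays) were quantile normalised and fitted with limma 3.58.1 in R 4.3.3 with a mean for each of 20 groups and chip as a random block (correlation within a chip 0.201, statmod 1.5.0). P-values were two-sided and adjusted over all probes (Benjamini-Hochberg, threshold 0.05). Detection values were not used here, so the signal over background is unknown, and 3 arrays a group limit the precision. The script was tested on simulated data.

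Symbols came from GEO's platform annotation, updated through RefSeq (GRCm38.p6): 34885 probes had 1 symbol, 18 several and 10378 none. The text names up to 10 higher and 10 lower genes per comparison with 1 h whose arrays do not overlap, the 20 smallest p-values of the F test, listed genes that pass with up to 4 others per list, the smallest p-values where none pass, and examples the study gives. List medians use the brightest probe of each gene. The members and the 23 lists were chosen with earlier results of these data known. Alternatives were the authors' table, median scaling, a brightness filter, other treatments of chip, a replicate block and fewer groups. Further ones were a per-probe t or F test on the arrays compared alone, and leaving out each array.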

Additional observations from a re-analysis of the deposited data

How the results depend on the processing

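The counts for 4 h, 8 h and all times in fluoxetine mice, and for 8 h against 2 h, were 4, 25, 28 and 34 probes. With arrays shifted to a common median they were 2, 11, 13 and 11, and with z-scores within each chip 0, 0, 0 and 0. A per-probe t or F test outside limma, on the arrays compared alone, also gave 0, 0, 0 and 0 after adjustment. It left 1798 probes at an unadjusted p under 0.05 at 4 h, 2505 at 8 h and 2521 for 8 h against 2 h. Such a test has few degrees of freedom, and it is not the study's analysis of variance of drug and time over all arrays. With only the arrays compared, limma gave 0, 5, 2 and 2. Without the 2 arrays of highest transthyretin, chosen after the data had been seen, the counts were 2, 16, 15 and 16. Without the chip block 15 probes passed at 8 h, among probes brighter than the median 54 passed for 8 h against 2 h, and with chip as a fixed block 1 (Plin4) differed from naive mice. The causes were not tested, except that fewer arrays entered some fits. The authors' table gave 4, 28, 32 and 38. Leaving out 1 array gave 1 to 4, 12 to 27, 15 to 33 (15 without array 2 at 8 h, 18 without array 3 at 8 h) and 11 to 39 probes, and 0 to 1 at 2 h (Fancb without array 1 of 2 h, adjusted p = 0.0374). The comparisons with the saline and naive time courses gave 0 to 0.

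The labels do not say what the replicate number marks. Deviations from group means of arrays of the same number correlated at 0.377 on average over 18 pairs (15 over 0.1, lowest -0.0742). The 36 pairs of different number had -0.189, a value that follows from the other because deviations cancel within each group. The fluoxetine arrays numbered 1, 2 and 3 lay on separate sets of chips, and a batch that goes with the number was not told apart from it. Since not every pair exceeded 0.1 it was not taken as a pairing. A fit with the replicate block gave 5, 27, 31 and 38 probes, with all 25 of the 8 h calls kept.

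Per2 at 8 h changed sign with z-scores (0.10) and without array 2 at 8 h (range without single arrays -0.28 to 0.057), and Sgk1 at 8 h with z-scores (0.17), without array 2 at 1 h (range -0.47 to 0.14) and without the 2 transthyretin-rich arrays (0.14). Neither had passed. A filter on detected probes was not run.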
